A study of Mus musculus with 6 samples.

Results

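The genes described here are the mouse SCAN and BTB zinc-finger genes, taken as all protein-coding genes whose symbol is Zkscan, Zscan or Zbtb followed by a number. The rule found 68 of the 48709 genes counted. Of these, 27 were SCAN members (Zkscan and Zscan) and 40 were BTB members (Zbtb). The remaining one, Zbtb8os, has such a symbol only because it lies opposite Zbtb8a. It encodes a protein of tRNA ligation without zinc fingers, so it was kept out of both classes. Neocortical RNA of C57BL/6 mouse embryos (E15.5, the embryonic day given in the labels) was sequenced. There were 3 wild-type (WT) embryos and 3 embryos with a single Rest allele that lacks exon 4, Rest(+/deltaExon4), called Rest_het below. The titles of the mutant libraries say KO although their genotype is heterozygous. The labels name separate mice and give no litter, so p-values measure the spread between these samples. They name no promoter or Cre line behind the allele.

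Zinc-finger transcription factors read DNA through tandem C2H2 fingers and differ in the domain at the other end of the protein. The SCAN domain pairs these proteins with one another and often stands beside a KRAB box, which recruits the co-repressor TRIM28. The BTB domain also forms dimers and in several members binds the co-repressors NCoR, SMRT and BCOR. Rest itself encodes a C2H2 zinc-finger repressor of neuronal genes and belongs to neither class.

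Sequencing gave 17835117 to 20753653 gene reads per library. Levels are given as CPM (read counts scaled to a common library size with TMM factors), and per kilobase of the merged exons (RPKM) where genes are compared with each other. Fold changes are Rest_het over WT. A gene was called when its edgeR p, adjusted by Benjamini-Hochberg over 15385 tested genes, was under 0.05. Rest stood at 20.6 ± 0.778 CPM in the WT and 18.1 ± 1.23 CPM in the Rest_het libraries (SD, n = 3 each). The log2 fold change was -0.19 (edgeR p 0.098 unadjusted and 0.49 adjusted). Rest was lower without overlap between the groups, where 8.94% of all genes tested were. The Rest total covers all exons and does not check the deletion of exon 4. All 10 neocortex markers were tested, and their summed level was 1732 to 2027 CPM in WT and 1582 to 1733 CPM in Rest_het. Of these, 8 had a log2 fold change below 0, where 49.1% of all genes tested did. Eomes (log2 fold change -0.31) was lower and Emx1 (0.50) higher without overlap between the groups. Both had an unadjusted edgeR p under 0.05 (edgeR adjusted p 0.40 each). The summed levels of markers of other tissues overlapped between the groups: 40.4 to 91.7 CPM in WT and 41.7 to 403 CPM in Rest_het for hippocampus, cortical hem and choroid plexus, 111 to 147 and 127 to 239 CPM for ventral telencephalon, 123 to 221 and 118 to 224 CPM for thalamus, and 270.1 to 343 and 165 to 350.0 CPM for erythroid cells. The ranges were 17.6 to 24.2 and 18.5 to 26.5 CPM for microglia, 43.5 to 78.0 and 55.2 to 80.1 CPM for endothelium, and 95.1 to 241 and 94.5 to 265 CPM for meninges. Single markers did stand apart: an unadjusted edgeR p under 0.05 was reached, higher in Rest_het, by 3 of 7 tested markers of hippocampus, hem and choroid plexus and by 2 of 3 of thalamus. Among them Prox1 (log2 fold change 1.45), Otx2 (1.85), Lhx9 (1.05) and Barhl2 (1.84) did not overlap between the groups, with edgeR adjusted p of 0.33, 0.32, 0.35 and 0.35. The part of these in the results below was not tested. Reads of a LacZ sequence occurred in the WT libraries and reads of a Cre-ERT2 sequence in the Rest_het libraries, without exception, so the Rest allele and whatever else separates these groups cannot be told apart. In tissue RNA, fewer cells of a type and less RNA per cell cannot be told apart either.

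Of the 68 genes, 54 had enough reads to be tested: 17 of 27 SCAN members, 36 of 40 BTB members and Zbtb8os. In the comparison of the genotypes, 1 SCAN member, Zkscan1, was lower in Rest_het and 0 were higher, and 0 BTB members were called in either direction. Over all genes tested, 0.123% were called, 0.0585% lower and 0.065% higher. An unadjusted edgeR p under 0.05 was found for 2 SCAN members lower and 0 higher, and 3 BTB members lower and 3 higher, where 4.72% of all genes were lower and 6.98% higher. The promoters of the genes these results turn on are shown first, to let the reader see the sequence in front of the called SCAN gene, of its SCAN neighbour, and of the BTB gene with the smallest p. Each is the 250 bases upstream of the RefSeq start in GRCm38.p6, on the plus strand, 5′ to 3′, with CG dinucleotides in capitals. The windows are chr5:138084834-138085083 for Zkscan1, chr5:138116655-138116904 for Zscan21 and chr9:31030394-31030643 for Zbtb44.
Zkscan1: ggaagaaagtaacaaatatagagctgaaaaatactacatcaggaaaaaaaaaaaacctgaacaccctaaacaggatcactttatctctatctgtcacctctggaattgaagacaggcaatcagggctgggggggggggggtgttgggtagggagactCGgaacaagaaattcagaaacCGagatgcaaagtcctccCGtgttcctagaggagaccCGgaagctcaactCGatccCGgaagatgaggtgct
Zscan21: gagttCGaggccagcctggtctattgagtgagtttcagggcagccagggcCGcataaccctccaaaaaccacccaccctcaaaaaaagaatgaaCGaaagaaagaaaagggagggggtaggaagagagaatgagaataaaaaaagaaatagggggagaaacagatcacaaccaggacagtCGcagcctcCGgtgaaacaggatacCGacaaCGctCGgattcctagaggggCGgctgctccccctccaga
Zbtb44: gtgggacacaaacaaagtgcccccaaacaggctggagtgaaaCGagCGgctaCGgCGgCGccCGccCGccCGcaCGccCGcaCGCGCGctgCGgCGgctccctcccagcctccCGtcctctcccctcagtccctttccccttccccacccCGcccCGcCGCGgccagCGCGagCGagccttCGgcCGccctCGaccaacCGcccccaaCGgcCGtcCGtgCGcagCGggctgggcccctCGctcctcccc
The Zkscan1 window held 6 CG dinucleotides and was 47.2% G or C, and the Zscan21 window held 9 and was 52% G or C. The Zbtb44 window held 33 and was 76% G or C. The last 2 bases of the Zscan21 window lie inside the gene as GENCODE annotates it.

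The same was counted over all windows of each class. The median number of CG dinucleotides per window was 6.75 over 20 SCAN members with a RefSeq window and 22 over 35 BTB members, beside 6 over 27025 genes. The median G and C content was 48.6% for SCAN members, 65.6% for BTB members and 52.4% for all genes. The BTB members were not uniform: Zbtb46 had 0 CG dinucleotides, Zbtb18 2 and Zbtb20 3, while Zbtb25 had 39 and Zbtb41 38. Among SCAN members Zscan29, with 31, and Zscan18 and Zkscan2, with 20 each, were the highest. RefSeq windows were at hand for 56 of the 68 genes, with 74 windows in all, and for 58 of the 74 the first 20 transcribed bases occurred in a GENCODE transcript of the gene.

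Short motifs were searched on both strands of these windows. The letters CAGCACC, from the left part of the RE1 element that REST binds, occurred in 5.73% of all 32851 windows. They occurred in 1 of 25 SCAN windows, that of Zkscan2, and in 6 of 48 BTB windows, those of Zbtb14, Zbtb22, Zbtb32, Zbtb46, Zbtb7a and Zbtb9. The letters GGACAGC, from the right part, occurred in 5.28% of all windows, in 1 SCAN window, that of Zscan2, and in 0 BTB windows. The Zkscan1 window printed above holds CCGGAAG, a core of ETS-factor sites, in 2 places. This motif was chosen after that sequence was read. It occurred in 6.91% of all windows, in 4 of 25 SCAN windows (16%; Zkscan1, Zkscan4, Zscan12 and Zscan29) and in 9 of 48 BTB windows (18.75%). The SCAN count includes Zkscan1, from which the motif was picked. The motif holds a CG, and the median CG number per window was 22 for BTB members and 6 for all genes. The share of all windows is therefore no like background for the BTB windows. The motifs do not overlap one another, and a match is a description of the letters and not of binding.

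Zkscan1 encodes a protein with a SCAN domain, a KRAB box and C2H2 fingers. The gene (ENSMUSG00000029729) lies on chromosome 5 from 138085084 to 138107822 on the plus strand of GRCm38. The 3 WT libraries measured 196.8, 196.8 and 200.2 CPM, and the 3 Rest_het libraries 119, 115 and 126 CPM. The groups were far from overlapping, and the lowest WT library stood well above the highest Rest_het library. Zkscan1 fell from 198 ± 1.97 to 119.97 ± 5.32 CPM (SD, n = 3 each), a log2 fold change of -0.72 (SE 0.07; edgeR adjusted p 0.012). The WT level was 1.65-fold that of Rest_het, with a 95% interval of 1.49 to 1.82. Another annotated gene, Gm43493, shares 2.37% of its exon sequence. The edgeR adjusted p was 0.070 without WT replicate 3 and 0.070 without Rest_het replicate 1, with log2 fold changes of -0.71 and -0.72, so the call did not hold without either library although the fold change was nearly the same.

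Zscan21 is the nearest SCAN gene, 9.08 kb downstream of Zkscan1 on the same strand, and its product is known from the control of granule cell precursors in the cerebellum. It lies on chromosome 5 from 138116903 to 138134265. Zscan21 measured 108, 123 and 120.4 CPM in WT and 101, 92.4 and 97.4 CPM in Rest_het. All 3 Rest_het values lay under all 3 WT values, by a margin that was small for the closest pair. The log2 fold change was -0.27 (SE 0.08; edgeR p 0.012 unadjusted and 0.36 adjusted), so Zscan21 did not pass.

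**Figure D1:**
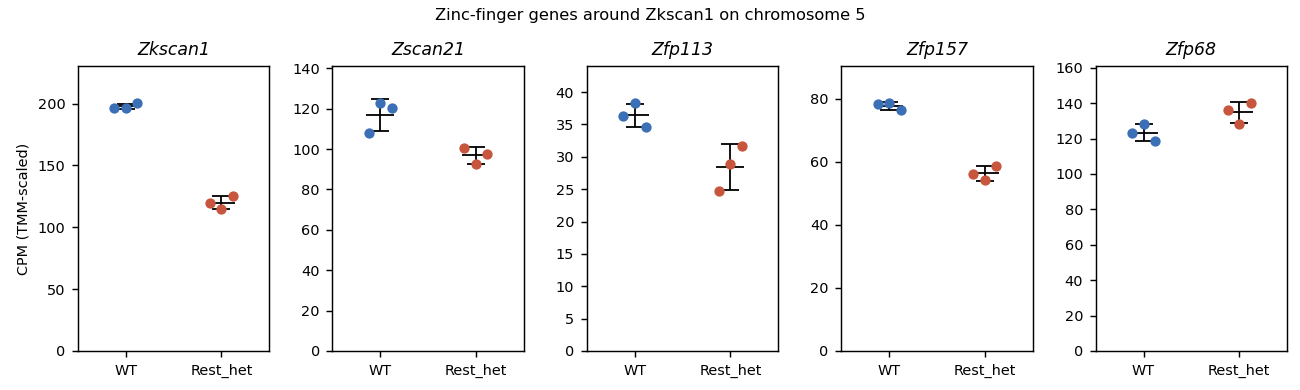
CPM of Zkscan1 and of the zinc-finger genes around it on chromosome 5 in each library (vertical axis, TMM-scaled CPM, starting at 0), with points for the 3 WT and 3 Rest_het libraries, a line for each group mean and whiskers for 1 SD. Zkscan1 has WT values of 196.8 to 200.2 CPM against 115 to 126 CPM in Rest_het, and Zscan21 shows a smaller gap.

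The zinc-finger genes next to this pair that carry neither a SCAN nor a BTB symbol were read as neighbours. Zfp113, 31.9 kb from Zkscan1, measured 36.3, 38.2 and 34.7 CPM in WT and 24.8, 28.8 and 31.7 CPM in Rest_het, with an edgeR adjusted p of 0.35. Zfp157, 334 kb away, measured 78.2, 78.5 and 76.4 CPM in WT and 56.1, 54.1 and 58.6 CPM in Rest_het. The log2 fold change of Zfp157 was -0.47 (edgeR adjusted p 0.13), and DESeq2 called the gene (adjusted p 0.0011). Zfp68, 496 kb away, had overlapping groups and was at 0.13 on the log2 scale (edgeR adjusted p 0.53). In Zfp113 and Zfp157, as in Zscan21, the groups did not overlap. The same held for genes with other symbols. Of the 38 other protein-coding genes tested within 1 Mb of Zkscan1, 5 were lower without overlap, 3 of them with a zinc-finger symbol. A further 6, with other symbols, were higher without overlap. Over all genes tested, 8.94% were lower and 10.4% higher without overlap.

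Within 1 Mb of Zkscan1, 38 other protein-coding genes were tested and 0 were called by edgeR, with 4 lower and 2 higher at an unadjusted p under 0.05. DESeq2 called 2 of them, Zfp157 and Actl6b, both lower, and limma-voom 0. DESeq2 called 0.819% of all genes tested. In all, 11 of the 38 lay below 0 and 27 above, with a median of 0.13 on the log2 scale, where 49.1% of all genes tested lay below 0 with a median of 0.0054. Split by name, after the values were seen, 3 of the 4 genes with a zinc-finger symbol lay below 0, against 8 of the 34 others, whose median was 0.17. Actl6b, a subunit of the neuronal BAF chromatin complex, was at -0.57 (edgeR adjusted p 0.32). Cops6, a subunit of the COP9 signalosome, was at 0.27 and Prkar1b, a regulatory subunit of protein kinase A, at 0.26 (edgeR adjusted p 0.41 each). Chromosome 5 holds 6 of the 19 genes called in all, and the others lie on chromosome 1, with 9, and chromosome 8, with 4. The nearest to Zkscan1 is 10.5 Mb away, and Rest is 60.8 Mb away.

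**Figure D2:**
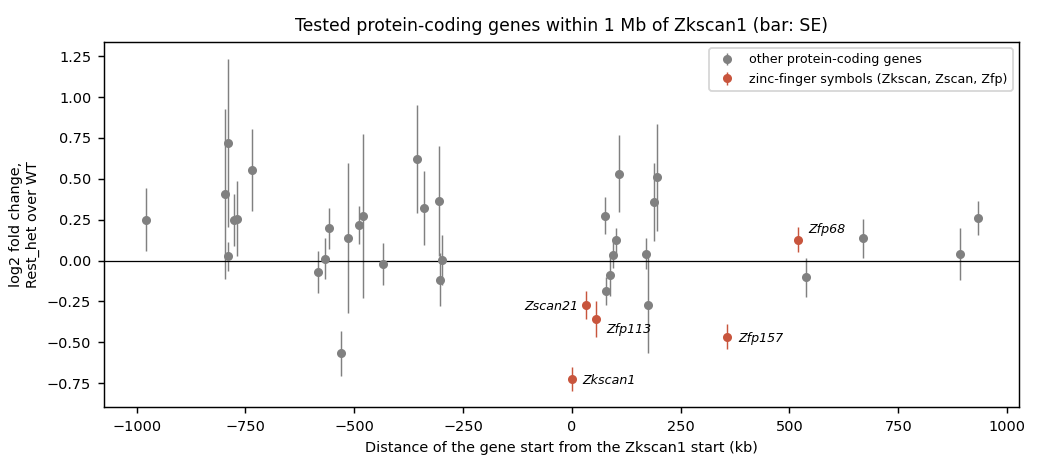
Log2 fold change (vertical axis, Rest_het over WT, bars are SE) of each tested protein-coding gene within 1 Mb of Zkscan1 against the distance of its start from the Zkscan1 start in kb (horizontal axis), with zinc-finger symbols marked apart. Zkscan1 at -0.72 is the lowest point, and 27 of the 38 others lie above 0.

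The other SCAN members on chromosome 5 sit apart from this pair, around Zkscan5, which starts at 145204562. Zkscan5, a KRAB and SCAN protein, measured 28.9, 33.02 and 32.5 CPM in WT and 28.4, 29.9 and 26.0 CPM in Rest_het, at -0.16 on the log2 scale (edgeR adjusted p 0.53). Zkscan14 overlapped between the groups at -0.07 on the log2 scale (edgeR adjusted p 0.89), which turned to above 0 when 1 library was left out. Zscan25 had 5 to 14 reads per library and was not tested. All 4 tested SCAN members on chromosome 5 thus lay below 0, their median being -0.22 on the log2 scale. The 13 tested SCAN members on other chromosomes were divided, 7 below and 6 above, with a median of -0.01. BTB members on the chromosomes that hold the called genes numbered 4, and 3 of them lay below 0, with a median of -0.26. These were Zbtb41, Zbtb37 and Zbtb18 on chromosome 1, while Zbtb49 on chromosome 5 was at 0.24 (edgeR adjusted p 0.51).

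As classes, the 17 SCAN members had a median log2 fold change of -0.07, with quartiles of -0.16 and 0.07, and 11 lay below 0. The 36 BTB members had a median of 0.01, with quartiles of -0.17 and 0.20, and 17 lay below 0. Over all 15385 genes the median was 0.0054 and 7553 lay below 0. The groups did not overlap for 2 SCAN members, both lower, and for 5 BTB members in each direction, where 8.94% of all genes were lower and 10.4% higher without overlap. The replicate SD on the log2 scale was typically 0.16 for a SCAN member, 0.15 for a BTB member and 0.20 for all genes tested (medians).

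**Figure D3:**
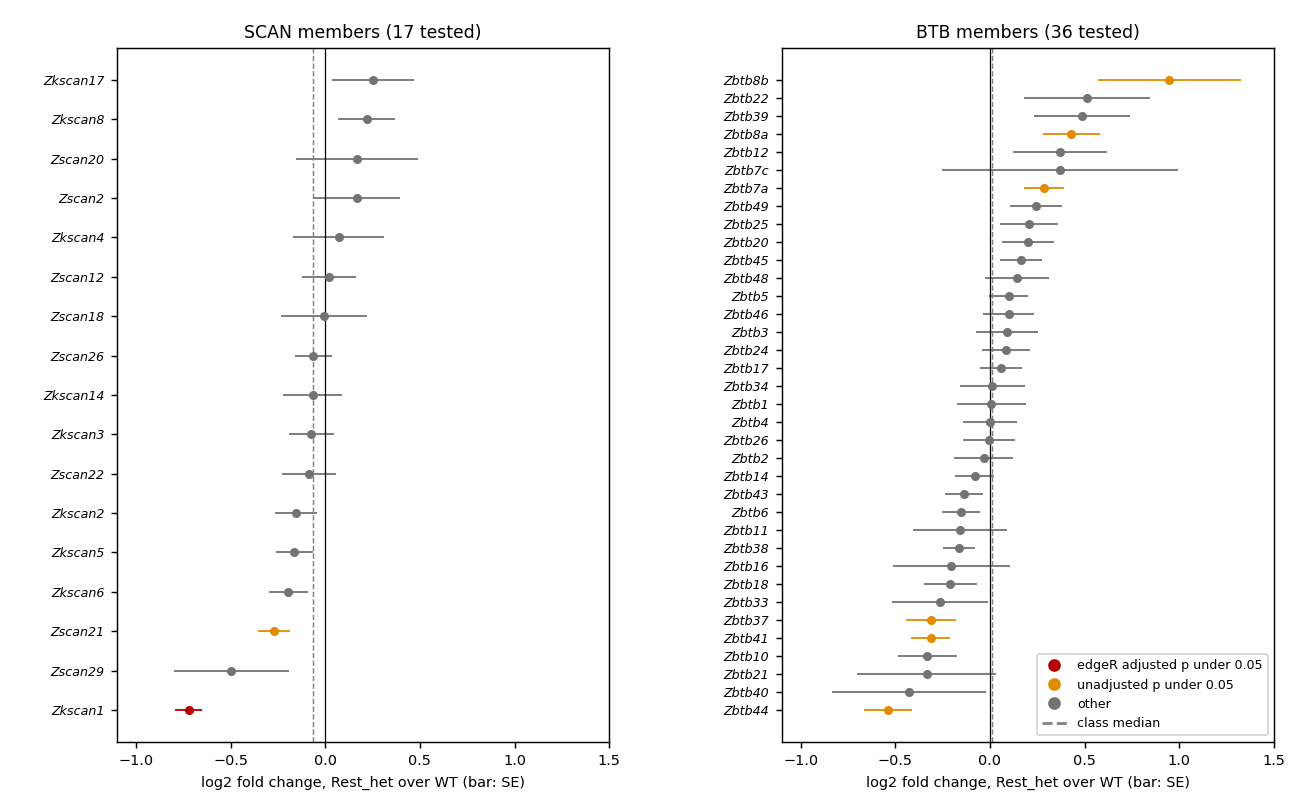
Log2 fold change of each tested SCAN and BTB member (horizontal axis, Rest_het over WT, bars are SE), ordered within its class, with the class median as a dashed line. Zkscan1 at -0.72 is the 1 member that edgeR called, and the class medians lie at -0.07 and 0.01.

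Zbtb44, a BTB zinc-finger protein of little-studied function, had the smallest p of its class. The gene (ENSMUSG00000047412) lies on chromosome 9 from 31030644 to 31075885. It measured 174, 135 and 124 CPM in WT and 99.1, 95.8 and 102 CPM in Rest_het. WT replicate 1 was high, and the groups did not overlap. The log2 fold change was -0.54 (SE 0.13; edgeR adjusted p 0.32). DESeq2 gave an adjusted p of 0.029, and edgeR without a count filter, which called 0.372%, gave 0.047. The value ranged from -0.64 to -0.38 when single libraries were left out.

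A pair on chromosome 1 was also lower at an unadjusted p under 0.05 without passing over all genes. Zbtb41 measured 18.1, 18.6 and 18.5 CPM in WT and 15.8, 14.6 and 13.9 CPM in Rest_het, a log2 fold change of -0.31 with SE 0.10 (edgeR adjusted p 0.36). Zbtb37 measured 15.7, 13.8 and 13.6 CPM in WT and 10.3, 11.6 and 12.9 CPM in Rest_het, also at -0.31 (edgeR adjusted p 0.42). Neither overlapped between the groups. Of the Zbtb37 exons, 15.6% are shared with Serpinc1 on the opposite strand. Reads in that shared stretch fit both genes in this library type, so they count as ambiguous and for neither gene.

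The BTB members higher in Rest_het at an unadjusted p under 0.05 were Zbtb8a, Zbtb8b and Zbtb7a. Zbtb8a and Zbtb8b are adjacent on chromosome 4. Zbtb8a measured 5.88, 6.91 and 6.54 CPM in WT and 9.35, 9.03 and 7.65 CPM in Rest_het, a log2 fold change of 0.43 with SE 0.15 (edgeR adjusted p 0.37). Zbtb8b was low throughout, with 1.19, 1.42 and 1.70 CPM in WT and 1.95, 4.38 and 2.02 CPM in Rest_het. Its log2 fold change of 0.95 with SE 0.38 (edgeR adjusted p 0.41) leaned on Rest_het replicate 2, and the lowest value with a library left out was 0.47. Zbtb8os, which shares 264 bases of exon with Zbtb8a on the opposite strand, stood at 12.5 ± 1.91 CPM in WT and 13.3 ± 0.955 CPM in Rest_het (SD, n = 3 each; edgeR adjusted p 0.82). Zbtb7a, a BTB repressor with a role in blood cell fate, measured 29.9, 26.9 and 26.5 CPM in WT and 33.8, 37.4 and 30.3 CPM in Rest_het, at 0.28 (edgeR adjusted p 0.39).

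**Figure D4:**
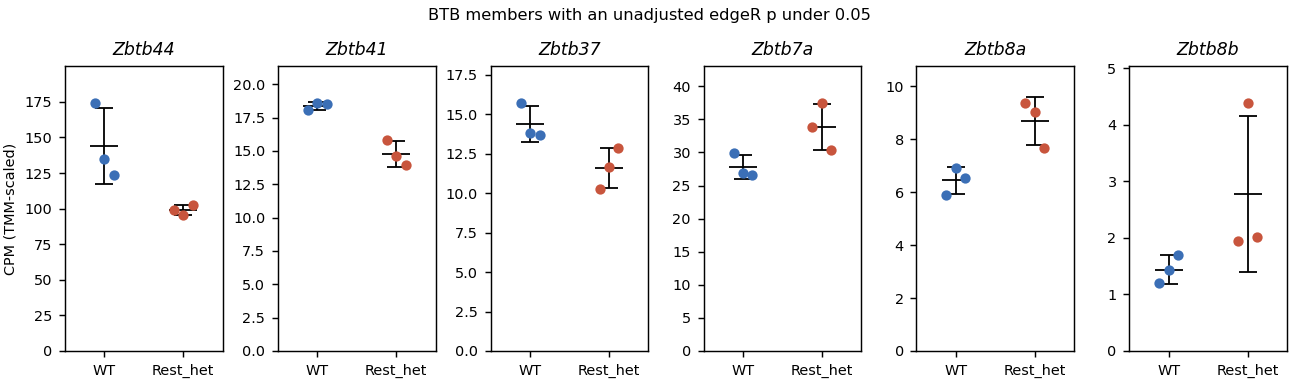
CPM in each library (vertical axes, TMM-scaled CPM, starting at 0) of the 6 BTB members with an unadjusted edgeR p under 0.05, with points for libraries, a line for each group mean and whiskers for 1 SD. Zbtb44, Zbtb41 and Zbtb37 are lower and Zbtb8a, Zbtb8b and Zbtb7a higher in Rest_het without overlap, and edgeR called 0 of the 6.

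Further BTB members whose groups did not overlap were Zbtb10 and Zbtb38, lower, and Zbtb39 and Zbtb12, higher. Zbtb10, a repressor of Sp-family genes, measured 7.07, 7.12 and 5.97 CPM in WT and 5.30, 5.26 and 5.47 CPM in Rest_het (edgeR adjusted p 0.44). Zbtb38, whose product binds methylated CpG, measured 1601, 1463 and 1366 CPM in WT and 1316, 1293 and 1350.3 CPM in Rest_het, at -0.16 on the log2 scale (edgeR adjusted p 0.48). Its margin between the groups was narrow. Zbtb39 was at 0.49 (edgeR adjusted p 0.48) and Zbtb12 at 0.37 (edgeR adjusted p 0.57), both under 3 CPM in every library.

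The members with known roles in cortex did not pass. Zbtb18, a repressor needed for the differentiation of cortical neurons, measured 111, 126 and 95.2 CPM in WT and 89.3, 85.1 and 113 CPM in Rest_het, with a log2 fold change of -0.21 (95% interval -0.48 to 0.06; edgeR adjusted p 0.56). Zbtb20, a determinant of hippocampal and upper-layer identity, measured 120.5, 89.5 and 105 CPM in WT and 137, 122 and 104 CPM in Rest_het, at 0.20 (95% interval -0.07 to 0.47; edgeR adjusted p 0.57). Both overlapped between the groups. The summed hippocampus, hem and choroid plexus markers stood at 91.7, 42.6 and 40.4 CPM in WT and 217, 41.7 and 403 CPM in Rest_het. Of these markers, Ttr alone stood at 53.0, 2.27 and 3.09 CPM in WT and 169, 5.49 and 357 CPM in Rest_het. Prox1 stood at 0.860, 1.05 and 1.29 CPM in WT and 2.70, 4.38 and 1.70 CPM in Rest_het. The sum thus mostly followed Ttr and does not measure hippocampal content alone. The part of these markers in the Zbtb20 values was not tested. Zbtb16, a factor of progenitor cells, was low at 1.06 to 1.85 CPM and at -0.20 (edgeR adjusted p 0.82). Zbtb45, linked to glial differentiation, was at 0.16 (edgeR adjusted p 0.57).

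Readers of methylated or CpG-rich DNA, and partners of Myc, were likewise not called. Zbtb33, known as Kaiso, was at -0.26 (edgeR adjusted p 0.70) with 1.68 to 2.68 CPM. Zbtb14 was at -0.08 (edgeR adjusted p 0.78), Zbtb2 at -0.03 (edgeR adjusted p 0.95) and Zbtb17, a partner of Myc, at 0.06 (edgeR adjusted p 0.87). The signs of Zbtb16, Zbtb17 and Zbtb2 turned when single libraries were left out. Among SCAN members, Zkscan3, a repressor of autophagy and lysosome genes, measured 119, 108 and 130.1 CPM in WT and 107, 102 and 131 CPM in Rest_het, at -0.07 (edgeR adjusted p 0.83). Zkscan8 was at 0.22 (edgeR adjusted p 0.57).

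Per length, 1 gene dominated each class. Zbtb38 measured 119 ± 9.84 RPKM over the 6 libraries (SD), at the 97.8th percentile of 13044 tested protein-coding genes, and took 41.4% of the summed BTB RPKM. Zscan26 measured 85.7 ± 6.67 RPKM and took 42.2% of the summed SCAN RPKM, with 23.6% of its exons shared with 4930470G03Rik on the opposite strand. Reads in shared exons count for neither gene, while the length of these exons is part of the RPKM. The top 5 genes held 81.6% of the SCAN and 70.03% of the BTB sum. By this measure the libraries of Zbtb38, 110.2 to 136 RPKM, did not overlap with those of Zscan26, 78.4 to 94.2 RPKM, and both stood above all other members. Zbtb38 shares 0% of its exons, so the shared stretch lowers the RPKM of Zscan26 alone. The gap between Zbtb38 and Zscan26 is therefore not settled.

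The next levels formed a run in which neighbours overlapped. Zscan21 followed with 33.4 ± 3.88 RPKM, Zbtb6 with 28.1 ± 2.64 RPKM and Zbtb45 with 24.3 ± 2.67 RPKM. Zkscan1 measured 18.6 ± 5.02 RPKM, the genotypes lying apart at 13.5 RPKM for its lowest and 23.4 RPKM for its highest library. Zbtb18 measured 16.8 ± 2.59 RPKM, Zkscan3 14.6 ± 1.56 RPKM, Zkscan6 13.5 ± 1.39 RPKM and Zbtb44 13.02 ± 3.19 RPKM (SD over 6 libraries throughout). Zscan26 (log2 fold change -0.06), Zbtb6 (-0.15) and Zkscan6 (-0.19) had edgeR adjusted p of 0.82, 0.56 and 0.49.

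The median level was 3.82 RPKM over the 17 SCAN members and 2.49 RPKM over the 36 BTB members, beside 3.29 RPKM over tested protein-coding genes. The quartiles were 2.18 and 13.5 RPKM for SCAN and 0.936 and 5.20 RPKM for BTB members, so the classes overlapped broadly. In single libraries the median ran from 3.36 to 4.27 RPKM for SCAN and from 2.12 to 3.00 RPKM for BTB members. Under 1 RPKM were 3 SCAN and 11 BTB members, and over 10 RPKM were 5 and 7. The tested members were those with enough reads, and with the untested ones included the medians were 2.16 and 1.92 RPKM.

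**Figure D5:**
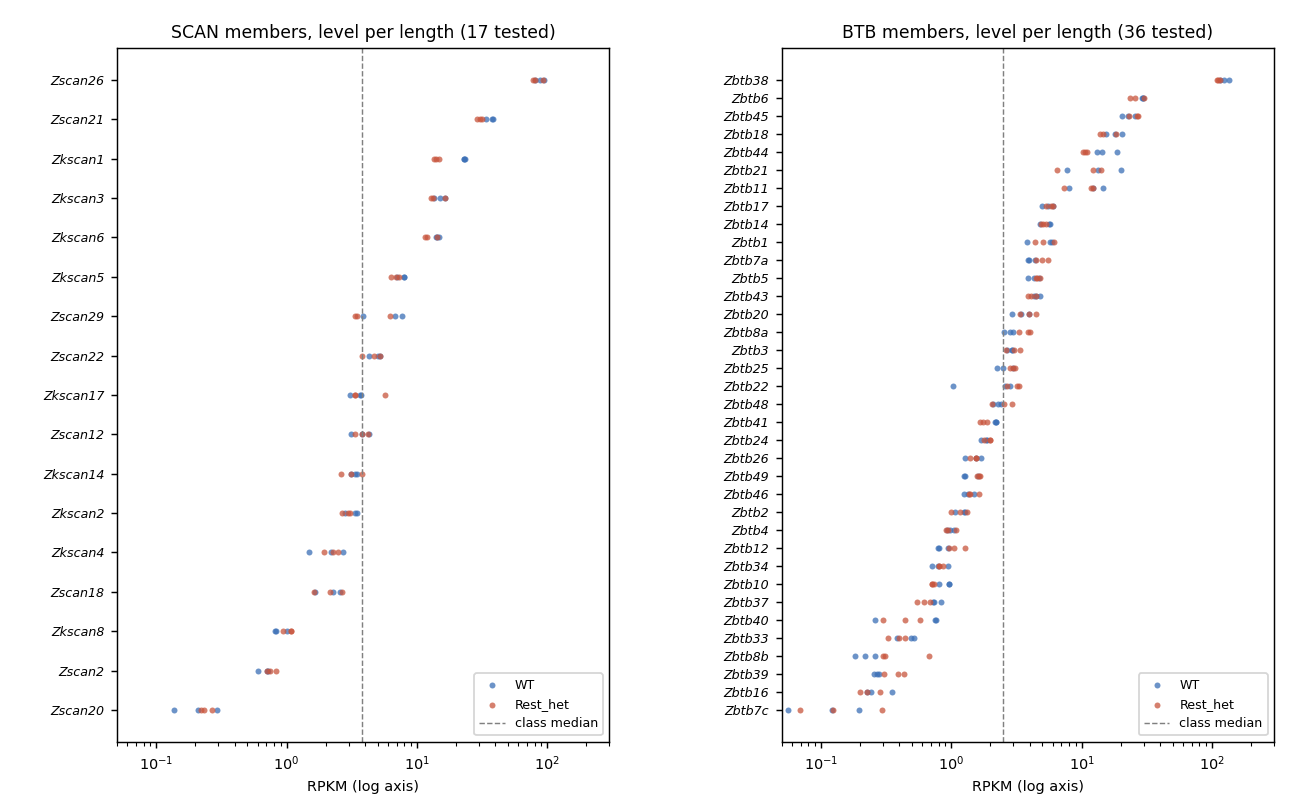
RPKM of each tested member in each of the 6 libraries (horizontal log axis), SCAN and BTB members in separate panels, with WT and Rest_het libraries in different colours and the class median as a dashed line. Zbtb38 and Zscan26 stand above the rest, and the class medians are 3.82 and 2.49 RPKM.

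The members without enough reads included genes known from other tissues. Of the 10 such SCAN members, Zscan4b, Zscan4c, Zscan4d, Zscan4e and Zscan4f, telomere-linked genes of the early embryo and of embryonic stem cells, had 0 reads in every library. A count of 0 allows up to 3 reads, which is 0.143 to 0.166 CPM per library and covers counting error only. Multimapping reads count for no gene, so reads that fit several of these related genes would be missed. The part of this in the zeros was not tested. Zscan10, a factor of pluripotent cells, had 1 read in 1 Rest_het library, and Zscan5b 1 read in a WT and 2 in a Rest_het library. The pluripotency markers Pou5f1, Dppa3 and Zfp42 summed to at most 0.264 CPM, with Zfp42 at 0. Zkscan16 had 1 to 14 reads and Zkscan7 7 to 14. Of the 4 BTB members not tested, Zbtb7b, a factor of helper T cells, had 9, 9 and 5 reads in WT and 4, 2 and 1 in Rest_het. Zbtb32 and Zbtb42 had 1 to 5 and 2 to 7 reads. Zbtb9 had 0 reads in every library. In the GENCODE annotation 84.4% of its exons are shared with Ggnbp1 and AC144621.2, which are not among the genes counted here. The part of this overlap in the zero was not tested.

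A few members varied widely between replicates. The replicate SD passed 0.4 on the log2 scale for 7 tested members: Zscan29, Zbtb7c, Zbtb8b, Zbtb11, Zbtb21, Zbtb22 and Zbtb40. Zbtb21 measured 49.4, 85.1 and 128 CPM in WT and 41.0, 89.5 and 77.4 CPM in Rest_het. Zscan29 measured 27.5, 49.0 and 54.7 CPM in WT and 44.4, 23.8 and 24.8 CPM in Rest_het. Zbtb22 stood at 2.77 CPM in WT replicate 1 and at 6.91 to 8.81 CPM in the other libraries. In each of these 3 genes the groups overlapped.

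Positions in the genome were counted for all members, tested or not. Of the 27 SCAN members, on 8 chromosomes, 17 had another SCAN member within 1 Mb. Of the 40 BTB members, on 15 chromosomes, 10 had another BTB member within that distance. The Zkscan1 and Zscan21 pair is 1 such cluster, and Zkscan3, Zkscan4, Zkscan8, Zscan12 and Zscan26 lie on chromosome 13. Of these 5 genes, 0 were called, and their log2 fold changes ran from -0.07 for Zkscan3 to 0.22 for Zkscan8.

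Genes of the same families with other symbols, and the co-repressors, were counted as related lists. Of 15 SCAN-domain genes with other symbols 13 were tested and 0 called by edgeR, with a median log2 fold change of 0.04. Zfp397 was the 1 gene at an unadjusted p under 0.05 (log2 fold change -0.23, edgeR adjusted p 0.43). Of 8 BTB zinc-finger genes with other symbols 7 were tested and 0 called, with a median of -0.12. Mynn, at -0.27, and Zfp131, at -0.19, had an unadjusted edgeR p under 0.05 (edgeR adjusted p 0.40 and 0.41). All 15 co-repressor genes were tested, 0 were called and 0 reached an unadjusted edgeR p under 0.05. Of these, 11 lay below 0, with a median of -0.08. DESeq2 and limma-voom also called 0 genes of these 3 lists.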

How the data were processed

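RNA of 6 dissected neocortices was primed with oligo dT, amplified by PCR and tagmented with Nextera XT, per the labels' protocols. Strand is not marked and molecular identifiers are absent, so PCR copies count as reads. Reads in exons shared with an antisense gene cannot be assigned, and count as ambiguous and for neither gene. The authors deposited whole-number gene read counts. The submitters' processing notes name STAR 2.5.2a and GRCm38.p4. The annotation release is not given in the sources used here. The unstranded column was used, and the forward strand held 49.9 to 50.1% of reads. Of the read pairs, 21.4 to 26.9% lay outside annotated exons, 6.29 to 7.48% were multimapping, 2.54 to 2.85% were ambiguous and 1.21 to 1.45% were unmapped. These, and spike-in and transgene sequences, stayed out of library sizes and tests. The deposited table of normalized signal, from DESeq2 per the submitters' processing notes, equals the counts divided by 1 size factor per library over its 18995 genes. It served as an alternative.

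A symbol was found for 48349 of 48709 gene IDs. Gene types, positions and exon unions came from GENCODE on GRCm38. Zbtb11os1, Zscan30 and Zscan4a matched the symbol rule but are not protein-coding, and held 27, 33 and 0 reads in all. Counts were tested with edgeR 4.0.16 in R 4.3.3 (quasi-likelihood test, TMM scaling, genotype alone in the model). filterByExpr was used with 10 as minimum count and 15 as minimum total. SE was taken as the log2 fold change over the square root of F, and intervals are 1.96 SE on each side. They are narrower than 95% intervals of the edgeR test would be. For Zbtb10 the interval, -0.63 to -0.028, leaves out 0 at an unadjusted edgeR p of 0.064. The biological coefficient of variation was 0.183. Replicates of a group differed by far more than sampling noise (chi-square per degree of freedom 24.0 to 120.1). On simulated counts for this comparison with 15422 genes tested, edgeR recovered 24% of 50 genes changed 1.5-fold. It recovered 74% of those changed 2-fold, 98% of those changed 3-fold and 100% of those changed 4-fold, and 5 of 153 calls were false. The simulation gave all genes the same dispersion, while the spread of real genes differs. These shares can therefore overstate the recovery of single members.

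The members, the lists and the comparisons were chosen with earlier results of these data known. Named were the members called or at an unadjusted p under 0.05, members within 5 Mb of a called one, the 5 highest per length of each class, members with known roles, genes of the related lists at an unadjusted p under 0.05, and Rest. Members with non-overlapping groups or a wide spread, and neighbours other than called ones, were named after their values were seen. Alternatives were DESeq2 size factors, upper-quartile factors, DESeq2 1.42.0, limma-voom (limma 3.58.1), limma on log2 of the deposited values plus 1, no filter, at least 1 CPM in 3 libraries, a looser threshold of 0.1, a replicate block, each library left out, the longest transcript as gene length, and all members in place of the tested ones. The SCAN median without chromosome 5 was added after the data were seen. Promoter windows came from RefSeq on GRCm38.p6.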

Additional observations from a re-analysis of the deposited data

Results flagged for a closer look

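A signal outside the gene counts drew attention in both groups. The 3 WT libraries held 27, 51 and 43 reads of a LacZ sequence, 121 in all, and each Rest_het library held 0. The 3 Rest_het libraries held 10, 16 and 17 reads of a Cre-ERT2 sequence, 43 in all, and each WT library held 0. The labels name neither sequence, and the part of this difference between the groups in the Zkscan1 values was not tested.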

How the results depend on the processing

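The 19 genes called over the whole table became 126 with DESeq2, 107 without a filter, 6 with the replicate number as a block, and 12 to 35 when single libraries were left out (WT replicate 1 gave 12, WT replicate 2 gave 35 and Rest_het replicate 3 gave 32). Zkscan1 kept its log2 fold change with the replicate block, -0.72, but not its call (edgeR adjusted p 0.089), which took the SCAN count from 1 to 0. With single libraries left out it ran from -0.75 to -0.69 (edgeR adjusted p 0.033 to 0.070) and the SCAN count from 0 to 1, ending without WT replicate 3 or Rest_het replicate 1. The labels give the pairing as a number alone. Deviations of same-numbered libraries correlated at 0.011, 0.037 and -0.14, and those of other pairs at -0.17 to 0.17. Whether the numbers mark a litter or a batch cannot be told from these values. Under scaling by DESeq2 size factors or upper-quartile factors, DESeq2, limma-voom, the deposited values, no filter and the CPM filter, Zkscan1 stayed called. The BTB count of 0 became 1, Zbtb44, with DESeq2 and without a filter. The BTB median ran from -0.0096 to 0.091 and the SCAN median from -0.10 to -0.0095 with libraries left out. The median of BTB members also fell below 0, to -0.0059, with upper-quartile factors, where the median of all genes was -0.013. Median levels were 5.24 RPKM for SCAN and 3.07 RPKM for BTB members by the longest transcript, and 2.16 and 1.92 RPKM over all members. Of 37 single genes, 32 kept their direction throughout. The log2 fold change turned with libraries left out for Zbtb16 (-0.35 to 0.012), Zbtb17 (-0.017 to 0.13), Zbtb2 (-0.13 to 0.071), Zkscan14 (-0.21 to 0.059) and Zkscan17 (-0.045 to 0.39). The cause of these changes was not tested. In counts simulated with the same dispersion for all genes, edgeR recovered 24% of 1.5-fold changes. Real genes differ in spread, and 19 genes were called here against 153 in the simulation. The simulated share is therefore not the power for a single member, which may be lower. A member with such a difference would often not be called.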
